A study of Mus musculus with 41 samples.

Results

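Bone morphogenetic protein (BMP) signalling was followed in bone through 10 genes, chosen by name: the ligands Bmp2, Bmp4, Bmp5, Bmp6, Bmp7 and Bmp8a, the atypical ligand Bmp3, the secreted antagonists Nog and Chrd, and the target gene Id1. They were 10 of the 43346 genes in the deposited table, and all 10 were among the 19292 genes kept by the filter on low counts. RNA was sequenced from the tibia diaphyses of 41 mice, which were 12 young mice, 13 old + vehicle-treated mice and 16 old + AP-treated mice. All mice, the young ones included, carried the INK-ATTAC transgene on a C57BL/6 background, and by the study's methods all were female. The labels give an age of 6 to 12 months for young mice. Old mice received vehicle or AP20187 (AP) at 10 mg per kg body mass, injected 2 times a week, from 20 months of age for 4 months. In this line a fragment of the p16Ink4a promoter drives an inducible caspase, so that AP acts only in cells in which that promoter fragment is active. No young mice given AP were analysed here. No treatment is listed for the young mice, so that age and the injections cannot be told apart in comparisons with them.

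BMP ligands are secreted dimers of the TGF-beta superfamily that bind type I and type II serine/threonine kinase receptors and lead to phosphorylation of Smad1, Smad5 and Smad9, which enter the nucleus with Smad4. In bone they drive the commitment and maturation of osteoblasts, and their activity is held in check outside the cell by antagonists such as noggin and chordin, which bind the ligands and keep them from their receptors. Id1, an inhibitor of basic helix-loop-helix transcription factors, is one of the most direct transcriptional targets of the pathway, and BMP3 differs from the other ligands in that it opposes their action in bone.

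Promoters are shown for the ligands Bmp4, Bmp5 and Bmp8a and for the antagonist Chrd, and their relation to the levels below was not tested. RefSeq promoters of GRCm38.p6, from 250 bases before to 50 bases after the start of transcription, were matched for 5 of the 10 genes (these 4 and Bmp6). Each is written 5′ to 3′ on the strand of its gene. Capitals mark matches on either strand to GGCGCC, the core of a BMP response element, to the GC box GGGCGG, to the Runx site TGTGGT and to the TATA box TATAAA. The Bmp4 promoter lies at chr14:46390620-46390919 (minus strand), that of Bmp5 at chr9:75775115-75775414 (plus strand), that of Bmp8a at chr4:123343203-123343502 (minus strand) and that of Chrd at chr16:20732877-20733176 (plus strand).
Bmp4: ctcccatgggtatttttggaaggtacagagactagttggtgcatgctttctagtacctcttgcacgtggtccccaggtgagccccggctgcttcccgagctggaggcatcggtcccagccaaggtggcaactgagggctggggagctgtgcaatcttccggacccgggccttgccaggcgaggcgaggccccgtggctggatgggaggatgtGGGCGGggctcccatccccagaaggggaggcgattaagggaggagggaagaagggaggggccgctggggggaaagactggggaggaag
Bmp5: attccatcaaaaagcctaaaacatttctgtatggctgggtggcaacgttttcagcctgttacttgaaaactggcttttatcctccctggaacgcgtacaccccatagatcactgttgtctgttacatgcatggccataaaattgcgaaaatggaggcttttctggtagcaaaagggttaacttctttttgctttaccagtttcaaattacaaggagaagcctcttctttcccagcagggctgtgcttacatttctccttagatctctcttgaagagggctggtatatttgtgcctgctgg
Bmp8a: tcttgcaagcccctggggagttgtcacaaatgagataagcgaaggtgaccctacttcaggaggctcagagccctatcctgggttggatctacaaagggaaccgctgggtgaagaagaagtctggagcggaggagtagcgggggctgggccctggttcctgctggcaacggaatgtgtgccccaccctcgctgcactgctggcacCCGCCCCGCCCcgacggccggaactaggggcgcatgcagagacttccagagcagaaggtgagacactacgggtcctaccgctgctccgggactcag
Chrd: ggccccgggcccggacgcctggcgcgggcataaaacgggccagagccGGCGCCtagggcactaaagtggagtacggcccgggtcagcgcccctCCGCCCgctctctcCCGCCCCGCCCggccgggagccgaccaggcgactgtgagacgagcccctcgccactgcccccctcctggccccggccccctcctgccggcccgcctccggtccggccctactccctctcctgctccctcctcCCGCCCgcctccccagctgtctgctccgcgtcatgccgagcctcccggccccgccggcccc

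Only the Chrd promoter held GGCGCC, in 1 copy at position -203 from the start, and 11.9% of the 32851 mouse promoters in the same table held this core. GGGCGG, found in 35.7% of all promoters, was present 4 times in the Chrd promoter and 2 times in that of Bmp8a, where neighbouring copies share 1 base, and 1 time each in those of Bmp4 and Bmp6. It was absent from that of Bmp5. Neither TGTGGT (16.8% of all promoters) nor TATAAA (13.6%) occurred in any of the 5. The short Smad box GTCT, found in 88.0% of all promoters and left in lower case, occurred 1 time in the Bmp5 window and 2 to 4 times in the other windows. The Bmp5 promoter was 43.3% G and C with 4 CpG sites, against a median of 52.7% and 7 CpG sites over all promoters, while those of Bmp4, Bmp8a, Bmp6 and Chrd lay between 62.0% and 78.3% with 12 to 34 CpG sites.

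The 41 libraries held 37028959 to 75942717 counts (median 47774880), and even Nog, the gene with the fewest reads of the 10, had 25 to 358 counts per mouse. Levels are given as CPM, the counts scaled by library size after edgeR's TMM normalization. The defining markers of bone were present, since the 8 osteoblast genes were read in every mouse, with Col1a1 at 2460 to 36700 CPM, as were the 6 osteocyte genes, with Dmp1 at 120.1 to 1199 CPM. Summed over the osteoblast list, the median was 67200 CPM in young mice, 39640 in old + vehicle-treated and 31090 in old + AP-treated mice. The osteocyte list summed to medians of 1331, 1448 and 1496 CPM in that order. Skeletal muscle genes were present at a median of 34250, 56840 and 37600 CPM in the same order. Old + AP-treated mice 18 and 19, by the numbers of the labels, stood apart, with the lowest osteocyte scores (mean log2 CPM 4.33 and 4.09, against 5.59 or more elsewhere) and the highest chondrocyte scores (5.79 and 5.23, against 4.46 or less). Old + vehicle-treated mouse 16 had the lowest neutrophil score (8.46, against 9.05 or more elsewhere) and is named below for Nog and Chrd. In bulk RNA such as this, fewer cells of a type and less RNA per cell cannot be told apart.

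The 10 genes spanned a wide range of expression, compared here as CPM divided by the deposited gene length in kilobases. Bmp3 was highest, with a mean of 25.3 ± 9.57 (SD, 41 mice), and Id1 followed at 13.8 ± 4.10. Bmp8a (8.73 ± 2.81) and Bmp4 (8.71 ± 2.59) did not differ beyond their spread, since Bmp8a was the higher in 18 of 41 mice. Bmp6 (7.14 ± 1.80), Bmp5 (4.46 ± 1.31), Bmp2 (3.76 ± 1.13) and Bmp7 (3.17 ± 1.08) came next. Bmp6 exceeded Bmp5 in 40 mice, Bmp5 exceeded Bmp2 in 33, Bmp2 exceeded Bmp7 in 36 and Bmp7 exceeded Nog in 40. The antagonists Nog (1.15 ± 0.74) and Chrd (1.06 ± 0.40) were lowest and close to each other, with Nog above Chrd in 21 mice. The order is that of all 41 mice together, and in young mice alone Bmp4 (9.57), Bmp6 (8.68) and Bmp8a (8.58) followed Id1. On this scale of level per length, the mean level of every ligand stood above those of both antagonists.

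**Figure D1:**
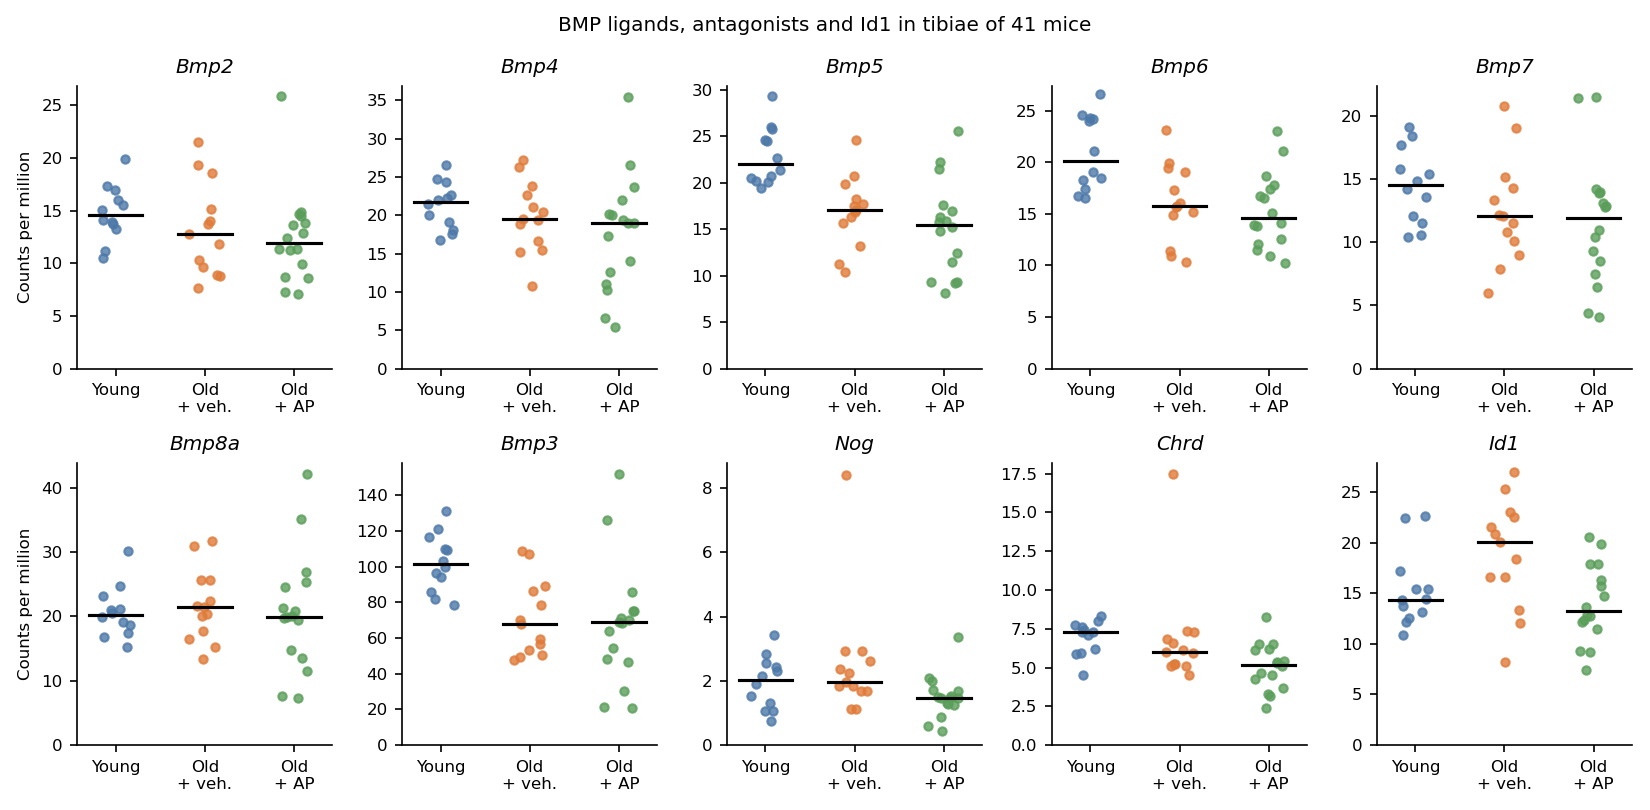
Expression of the 10 genes in CPM (vertical axes, each from 0) in every young, old + vehicle-treated (veh.) and old + AP-treated mouse; each point is 1 mouse and each bar a group median. Bmp5 and Bmp3 sit lower in old mice, Bmp8a is level, and 1 old + vehicle-treated mouse stands far above all others for Nog (8.41 CPM) and Chrd (17.5 CPM).

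Aging was addressed by the comparison of old + vehicle-treated with young mice. A call required an adjusted p under 0.05 (edgeR's quasi-likelihood test, Benjamini-Hochberg over the 19292 genes) and a log2 fold change beyond 0.5 or -0.5. None of the 10 genes was called, whereas 9.06% of all genes tested were (4.75% lower). DESeq2 called 0 of them as well, and 1956 of all genes. Bmp5 and Bmp6 had an adjusted p under 0.05, both lower in old mice, as did 19.3% of all genes (9.79% lower). With Bmp3, 3 of the 10 genes were under 0.05 before adjustment, all lower, against 31.8% of all genes (6127, of which 3050 were lower). Over the 10 genes the log2 fold changes had a median of -0.13, against 0.007 over all genes.

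Among the ligands, Bmp5 (ENSMUSG00000032179, GRCm38 chromosome 9, 75775364 to 75900310), a ligand first known from the short-ear mouse and its skeletal defects, had a median of 22.02 CPM in young mice (19.4 to 29.4), 17.04 in old + vehicle-treated (10.4 to 24.6) and 15.5 in old + AP-treated mice (8.15 to 25.5). The lowest young mouse lay above 10 of the 13 old + vehicle-treated and 13 of the 16 old + AP-treated mice, and the groups overlapped only at the top of the old groups. Between old + vehicle-treated and young mice the log2 fold change was -0.44 ± 0.15 (SE, adjusted p = 0.0282), which passed the p threshold (in 22 of 25 fits that left out 1 mouse) and not that of fold. In the same edgeR fit, old + AP-treated mice differed from young mice by -0.60 ± 0.14 (adjusted p = 0.00233), a decrease that was called in the full data and in all 28 fits that left out 1 mouse. It was short of the fold threshold with the mean osteoblast and osteocyte score of each mouse as a covariate (-0.35, adjusted p = 0.00424).

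Bmp6 (ENSMUSG00000039004, chromosome 13, 38345716 to 38499728), known also as the ligand through which iron stores set hepcidin, had a median of 20.1 CPM in young mice (16.6 to 26.6), 15.8 in old + vehicle-treated (10.3 to 23.2) and 14.5 in old + AP-treated mice (10.3 to 22.99). Of 13 old + vehicle-treated mice, 12 lay below the young median, and the groups overlapped in their upper parts. The log2 fold change was -0.38 ± 0.13 (edgeR adjusted p = 0.0275) in old + vehicle-treated and -0.45 ± 0.12 (adjusted p = 0.00741) in old + AP-treated mice relative to young mice. Both fell short of the fold threshold, and the first passed the p threshold in 21 of 25 fits that left out 1 mouse. Markers of marrow stromal cells and B cells moved in the same comparisons, in bones that had been centrifuged to remove marrow. Of 5 marrow stromal genes, 4 had an adjusted p under 0.05, all lower, in each of them, and of 7 B cell genes 6 did so with vehicle and 1 with AP. Of all genes tested, 9.79% did so with vehicle and 8.62% with AP. The endothelial list, as close to Bmp6 from mouse to mouse as the marrow stromal list (r = 0.69 each), did not fall. Of its 6 genes, 6 had positive fold changes with vehicle and 5 with AP. The part of these cell types in the difference of Bmp6 was not tested.

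Bmp3 (ENSMUSG00000029335, chromosome 5, 98854439 to 98880960), the inhibitory ligand and the most abundant of the 10, had a median of 101.4 CPM in young mice (78.4 to 131.4), 67.8 in old + vehicle-treated (47.6 to 108.9) and 68.8 in old + AP-treated mice (20.8 to 151.8). Of the old mice, 9 of 13 given vehicle and 13 of 16 given AP lay below every young mouse. Old + AP-treated mice spanned the whole range of the other groups and beyond, with mice 18, 19 and 24 at 20.8, 21.2 and 30.5 CPM and mice 12 and 27 at 151.8 and 126.0. The log2 fold change was -0.52 ± 0.21 in old + vehicle-treated mice (edgeR adjusted p = 0.0761). Bmp3 was lower in old + AP-treated than in young mice by a log2 fold change of -0.60 ± 0.20 (adjusted p = 0.0327), which met the call. That call was lost when any of mice 18, 24, 25, 31 or 38 was left out (log2 fold change -0.54 to -0.59, adjusted p 0.0508 to 0.0569), and the decrease in old + vehicle-treated mice was called without mouse 8 (-0.59, adjusted p = 0.0497). Leaving out mice 16, 18 and 19 together moved Bmp3 across the threshold in the opposite sense in the 2 comparisons, to -0.50 (adjusted p = 0.0473) in old + vehicle-treated and -0.47 (adjusted p = 0.0627) in old + AP-treated mice.

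The other 4 ligands passed no threshold in any comparison. Bmp2 (ENSMUSG00000027358, chromosome 2, 133552159 to 133562885), a ligand needed for fracture repair, had a median of 14.6 CPM in young mice (10.5 to 19.9), 12.8 with vehicle (7.69 to 21.5) and 11.9 with AP (7.08 to 25.9). Bmp4 (ENSMUSG00000021835, chromosome 14, 46383520 to 46390669), its closest relative, had a median of 21.7 CPM in young mice (16.8 to 26.6), 19.47 with vehicle (10.8 to 27.2) and 18.95 with AP (5.398 to 35.4). Bmp7 (ENSMUSG00000008999, chromosome 2, 172868012 to 172940321), known for its part in kidney and eye development, had a median of 14.6 CPM in young mice (10.4 to 19.2), 12.1 with vehicle (6.02 to 20.8) and 11.9 with AP (4.10 to 21.5). In each of the 3 genes the young range lay inside that of old + AP-treated mice. Their log2 fold changes relative to young mice were -0.16 ± 0.17, -0.11 ± 0.19 and -0.22 ± 0.20 in old + vehicle-treated mice, in the same order, and -0.26 ± 0.16, -0.27 ± 0.18 and -0.32 ± 0.19 in old + AP-treated mice, with edgeR adjusted p from 0.245 to 0.747.

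Bmp8a (ENSMUSG00000032726, chromosome 4, 123312645 to 123343252), a ligand best studied in the germ line and in fat, was the only ligand with no lower mean in old + vehicle-treated mice. It had a median of 20.2 CPM in young mice (15.2 to 30.1), 21.4 in old + vehicle-treated (13.4 to 31.7) and 20.0 in old + AP-treated mice (7.37 to 42.2), so that the medians were close and the widest range was that of old + AP-treated mice. The log2 fold change was 0.08 ± 0.19 (95% interval -0.31 to 0.46, edgeR adjusted p = 0.827) in old + vehicle-treated and -0.002 ± 0.18 (-0.37 to 0.37, adjusted p = 0.997) in old + AP-treated mice relative to young mice. With the mean osteoblast and osteocyte score of each mouse as a covariate, the same values became 0.27 (adjusted p = 0.00786) and 0.34 (adjusted p = 0.00245).

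**Figure D2:**
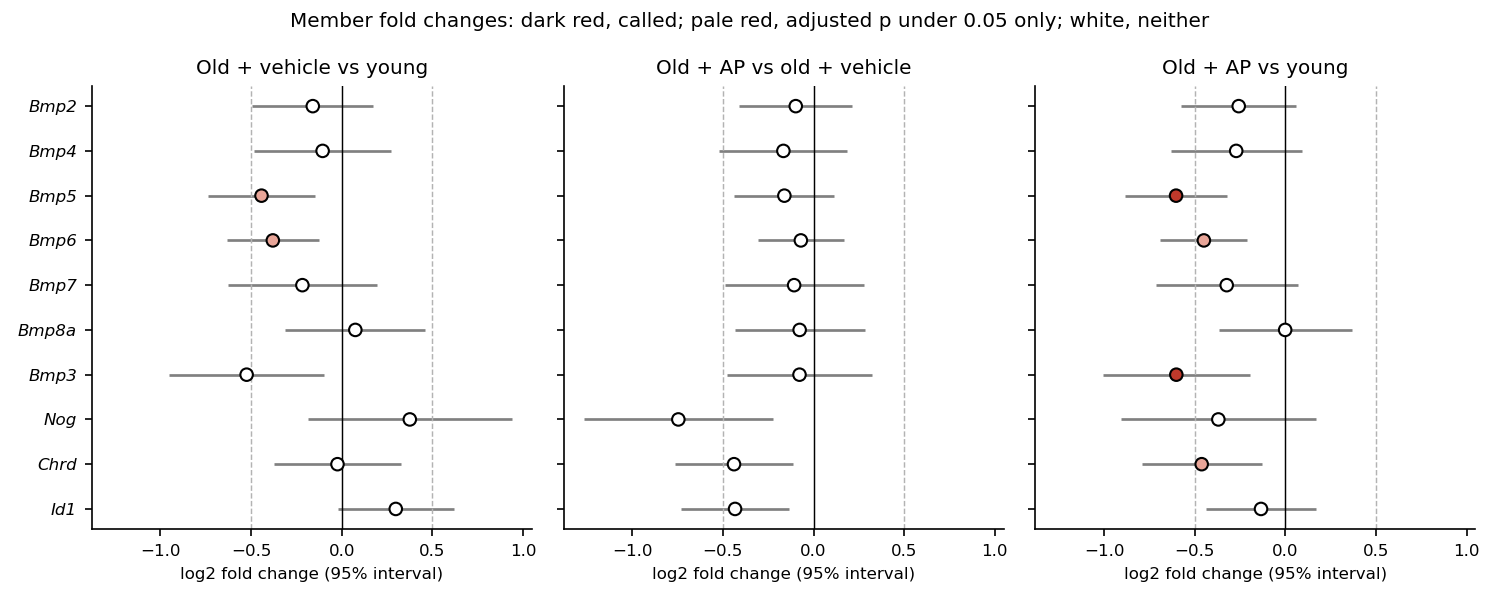
Log2 fold change of the 10 genes (points) with 95% intervals (lines) in the 3 comparisons, with dashed lines at 0.5 and -0.5; dark red, called; pale red, adjusted p under 0.05 without the fold; white, neither. Bmp5 and Bmp3 are called in old + AP-treated against young mice, and all 10 points lie below 0 between the old groups, none of them called (5 turn positive with the osteoblast and osteocyte score as a covariate, and 2 without mice 16, 18 and 19).

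Neither antagonist met the threshold between old + vehicle-treated and young mice. Nog (ENSMUSG00000048616, chromosome 11, 89300638 to 89302332), which encodes noggin, had a median of 2.03 CPM in young mice (0.735 to 3.43), 1.97 in old + vehicle-treated (1.12 to 8.41) and 1.48 in old + AP-treated mice (0.422 to 3.38). Chrd (ENSMUSG00000006958, chromosome 16, 20733127 to 20742384), which encodes chordin, had a median of 7.29 CPM in young mice (4.50 to 8.29), 6.01 in old + vehicle-treated (4.51 to 17.5) and 5.19 in old + AP-treated mice (2.36 to 8.27). Mouse 16 alone held the top values of both, and the next old + vehicle-treated mice were at 2.92 CPM for Nog and 7.37 CPM for Chrd, inside the range of young mice. Relative to young mice, old + vehicle-treated mice differed by a log2 fold change of 0.38 ± 0.28 for Nog (edgeR adjusted p = 0.371) and -0.02 ± 0.17 for Chrd (adjusted p = 0.945). Without mouse 16 these were 0.06 (adjusted p = 0.89) and -0.22 (adjusted p = 0.28).

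Id1 (ENSMUSG00000042745, chromosome 2, 152736251 to 152737410) was, with Nog and Bmp8a, one of 3 genes with a positive fold change in old + vehicle-treated mice. It had a median of 14.4 CPM in young mice (10.9 to 22.6), 20.1 in old + vehicle-treated (8.19 to 26.98) and 13.2 in old + AP-treated mice (7.46 to 20.6). A total of 10 of the 13 old + vehicle-treated mice lay above the young median, and the ranges overlapped widely. The log2 fold change was 0.30 ± 0.16 (95% interval -0.02 to 0.62, edgeR adjusted p = 0.19) in old + vehicle-treated and -0.13 ± 0.15 (adjusted p = 0.57) in old + AP-treated mice. With the osteoblast and osteocyte score as a covariate these were 0.38 (adjusted p = 0.0448) and 0.055 (adjusted p = 0.861).

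The drug itself was addressed by the comparison of old + AP-treated with old + vehicle-treated mice. Cdkn2a, which encodes p16Ink4a, was higher in old + vehicle-treated than in young mice (log2 fold change 2.22, edgeR adjusted p = 0.00034). It differed by -0.67 between the old groups (adjusted p = 0.266). None of the 10 genes was called by edgeR or by DESeq2. Of the 19292 genes edgeR called 14 (0.0726%, with 0.171% at an adjusted p under 0.05), and DESeq2 called 217. Each of the 10 fold changes was negative, with a median of -0.13 against -0.004 over all genes. With the mean osteoblast and osteocyte score as a covariate, Bmp2, Bmp3, Bmp6, Bmp7 and Bmp8a were positive (0.03 to 0.07), and without mice 16, 18 and 19 Bmp3 (0.03) and Bmp8a (0.01) were positive. Nog, Chrd and Id1 were under 0.05 before adjustment, all lower. Of all 19292 genes, 4614 (23.9%) were under 0.05 before adjustment, and 1805 of these were lower. The 7 ligands lay between -0.17 (Bmp4) and -0.07 (Bmp6), with adjusted p from 0.469 to 0.829, and the lowest and highest bounds of their 95% intervals were -0.52 (Bmp4) and 0.32 (Bmp3).

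Nog differed by a log2 fold change of -0.75 ± 0.26 (edgeR adjusted p = 0.0927), Chrd by -0.44 ± 0.16 (adjusted p = 0.104) and Id1 by -0.43 ± 0.15 (adjusted p = 0.0865), and none met the threshold. For Id1, 15 of the 16 old + AP-treated mice lay below the median of old + vehicle-treated mice, as did 13 for Nog and 11 for Chrd. The values of both antagonists rested on single libraries. Without mouse 16, Nog differed by -0.43 (adjusted p = 0.288) and Chrd by -0.24 (adjusted p = 0.307). Without old + AP-treated mouse 9, which was highest in its group for both, Nog (-0.87, adjusted p = 0.0323) and Chrd (-0.50, adjusted p = 0.0433) were both called. For Id1 the range over 29 fits without 1 mouse was -0.50 to -0.38 (adjusted p 0.0481 to 0.173), and without mice 16, 18 and 19 together it was -0.32 (adjusted p = 0.476).

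Old + AP-treated mice were also compared with young mice, which shares its groups with both comparisons above. Bmp5 and Bmp3 were called, both lower, so that 2 of 10 genes were called where 8.54% of all genes were (4.83% lower). With Bmp6 and Chrd (-0.46 ± 0.16, edgeR adjusted p = 0.0441), 4 of 10 had an adjusted p under 0.05, against 17.7% of all genes (8.62% lower). The median of the 10 fold changes was -0.35, and that of all genes was 0.02. Chrd met the call when mouse 9 (-0.53, adjusted p = 0.0191) or young mouse 39 (-0.52, adjusted p = 0.0248) was left out. The osteoblast list was lower in the same comparison, with 6 of its 8 genes called, and in old + vehicle-treated mice 3 of 8 were called lower. Of the 6 osteocyte genes, 5 had positive fold changes in each comparison with young mice, with 2 called higher and 1 called lower. With the osteoblast and osteocyte score as a covariate, Bmp5 differed by -0.35 (adjusted p = 0.00424) and Bmp3 by -0.23 (adjusted p = 0.0391) between old + AP-treated and young mice, and 0 of the 10 genes met the call. In that fit Bmp6 (-0.27, adjusted p = 0.113) and Chrd (-0.29, adjusted p = 0.283) were no longer under 0.05. All 8 neutrophil genes had positive fold changes against young mice in both old groups. With AP 3 of them were called higher (716 of all 19292 genes), and with vehicle 0 (830 of all genes). Chrd was lower where the neutrophil score was higher (below), and the part of neutrophils in its difference was not tested.

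Levels of the 10 genes were next compared from mouse to mouse, after the group means were subtracted from log2 CPM, over all 45 pairs. All 45 coefficients were positive, and 41 had an adjusted p under 0.05 by Pearson's r and 41 by Spearman's rho (permutation test with 100000 resamples within groups, two-sided, adjusted over the 45 pairs). The ligands other than Bmp6 formed the tightest set. Their 15 pairs had r from 0.72 to 0.94 and rho from 0.62 to 0.88, each with p = 1e-05 for r, the smallest value that these permutations can give (adjusted p = 2.81e-05), and r stayed at 0.66 to 0.90 without the 2 mice farthest from the median. The closest pair was Bmp3 and Bmp8a (r = 0.94, rho = 0.88), at 0.53 within young, 0.91 within old + vehicle-treated and 0.98 within old + AP-treated mice. Over the 15 pairs the median r was 0.53, 0.78 and 0.89 within the 3 groups, and Bmp5 with Bmp8a was at -0.30 within young mice. For comparison, between 3.13% and 5.8% of the 13980 other genes with a mean of at least 1 CPM reached an r of 0.72 with each of these 6 ligands.

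**Figure D3:**
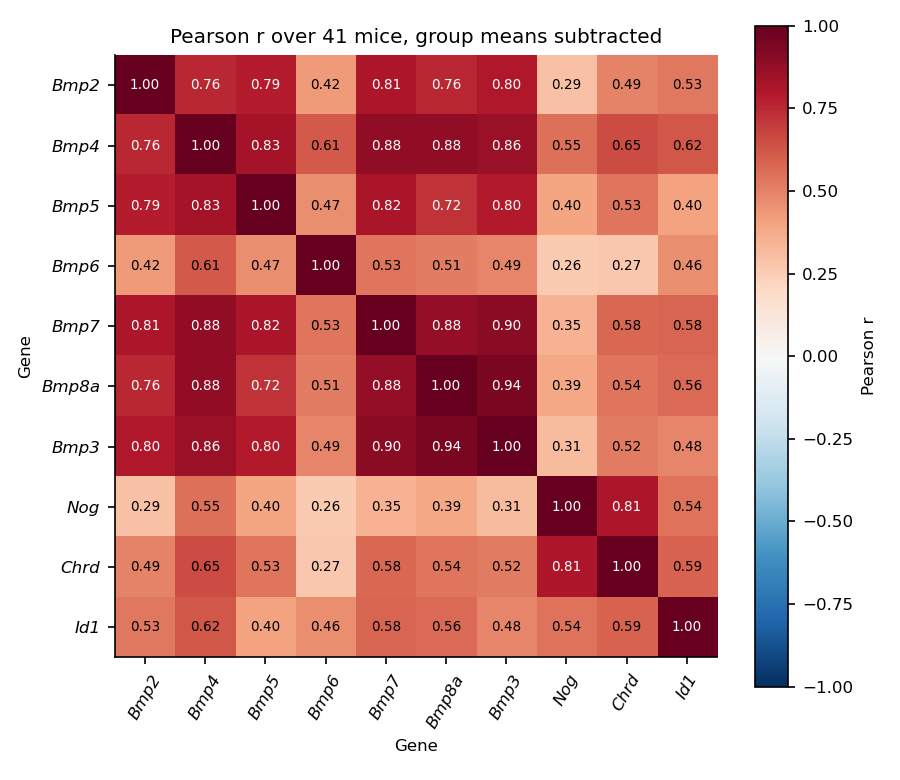
Pearson r between the 10 genes over 41 mice after subtraction of group means from log2 CPM (rows and columns, genes; colour and number, r). The ligands other than Bmp6 form a block at 0.72 or more, Bmp6 lies at 0.42 to 0.61 with them, and Nog and Chrd pair with each other at 0.81.

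Bmp6 stood apart from the other ligands, with r from 0.42 to 0.61 (highest adjusted p = 0.0127, permutation test), and 0.0644% of other genes reached an r of 0.72 with it. Nog and Chrd were close to each other (r = 0.81, rho = 0.68, adjusted p = 2.81e-05 by permutation), with r = 0.74 without mouse 16, 0.67 without the 2 mice farthest from the median of Nog (16 and 19), and 0.72, 0.82 and 0.88 within the 3 groups. Their 14 pairs with ligands had r from 0.26 to 0.65, and 10 of them passed by r and 10 by rho. Nog with Bmp2, Bmp3 and Bmp6 passed by neither, Chrd with Bmp6 by rho only (adjusted p = 0.0365 by permutation) and Nog with Bmp7 by r only. Without mouse 16 several of these coefficients were higher, with Chrd at 0.52 with Bmp6 (0.27 with all mice), 0.80 with Bmp4 (0.65), 0.75 with Bmp8a (0.54) and 0.74 with Bmp7 (0.58), and Nog at 0.44 with Bmp6 (0.26). Chrd with Bmp6 passed by r without mice 16, 18 and 19 (0.45, adjusted p = 0.00882 by permutation). Nog with Bmp8a moved from 0.39 to 0.11, with Bmp7 from 0.35 to 0.08 and with Bmp3 from 0.31 to -0.01 without mice 18 and 19, so that these relations rested on those mice. Id1 correlated with all 9 others at r from 0.40 to 0.62, most with Bmp4 (0.62) and Chrd (0.59). Id1 with Bmp5 was at 0.24 without mice 16, 18 and 19 (adjusted p = 0.163 by permutation) and at -0.25 within young mice. Without those 3 mice 37 of the 45 pairs passed by r and 32 by rho, and of the 6 pairs of Bmp6 with other ligands 5 passed by r and 1 by rho.

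The same mouse-to-mouse levels were set beside the mean log2 CPM of the marker lists, a relation added after the data had been seen, over 120 pairs of gene and list. Bmp2, Bmp3, Bmp4, Bmp5, Bmp7 and Bmp8a correlated with the osteoblast score at r from 0.79 to 0.82 and with the osteocyte score at 0.61 to 0.85 (adjusted permutation p of 0.000508 or less), and with the endothelial score at 0.54 to 0.78. Bmp6 was at 0.51 and 0.52 with these, and higher with the endothelial (0.69), marrow stromal (0.69) and B cell (0.62) scores. The B cell list holds Ebf1, a gene itself at r = 0.74 with Bmp6. Nog and Chrd were lower where the neutrophil score was higher, both at r = -0.71 (adjusted permutation p = 7.5e-05), and at -0.51 and -0.49 without mice 16, 18 and 19. With the osteoblast score Nog was at 0.32 (adjusted permutation p = 0.0981) and Chrd at 0.56 (adjusted permutation p = 0.00143), and with the endothelial score they were at 0.56 and 0.58. Nog was at 0.47 with the skeletal muscle score (0.29 without those 3 mice). The part of cell composition in the differences between groups was not tested. The covariate fits given here do not test it, because each score is itself a mean of RNA levels in the same libraries.

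**Figure D4:**
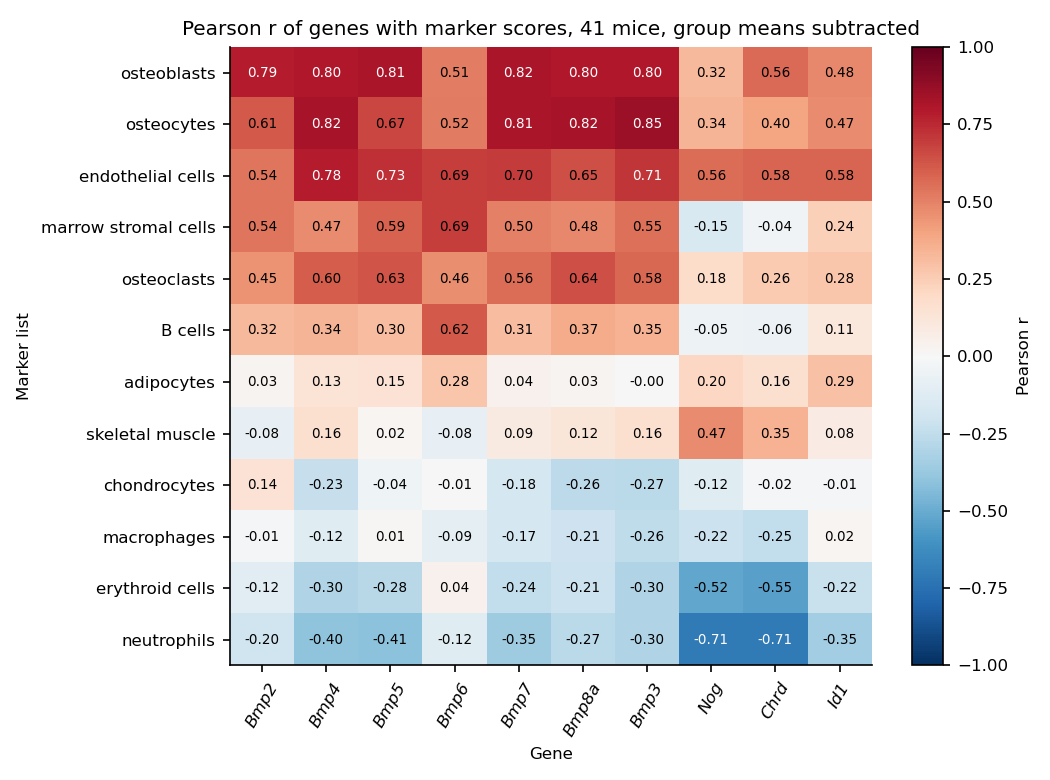
Pearson r of the 10 genes (columns) with the mean log2 CPM of 12 lists of cell type markers (rows) over 41 mice, group means subtracted; colour and number give r. The ligands other than Bmp6 are highest with osteoblasts or osteocytes, and Nog and Chrd are lowest with neutrophils (-0.71 each).

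The genes whose levels were most like those of each of the 10 were taken from 13981 genes by the same group-centred Pearson r over 41 mice, as a description. For Bmp3 they were Pcdh7 (0.96), Sema5a (0.95) and Wisp1 (0.95), and for Bmp8a they were Bmp3 (0.94), Ptgis (0.93) and Kank1 (0.93). Bmp7 was nearest to Bambi (0.94), a decoy receptor of the BMP pathway, Dlx6 (0.93), a homeobox gene of bone formation, and Pcdh7 (0.93). For Bmp4 they were Spns2 (0.95), Fgfr1 (0.94) and Magi1 (0.93), for Bmp5 Parva (0.94), Dpysl3 (0.92) and Ddr2 (0.92), and for Bmp2 Clec11a (0.88), Sema3d (0.88) and Dpysl3 (0.88). Clec11a encodes osteolectin, a growth factor that promotes bone formation. Coefficients were lower for Bmp6, with Gas6 (0.76), Npr1 (0.75) and Ebf1 (0.74). Nog was nearest to Vwa1 (0.84), Jup (0.81) and Plcd3 (0.81), Chrd to Gna11 (0.87), Lamc1 (0.85) and Slc4a3 (0.85), and Id1 to Rps4l (0.86), Grrp1 (0.84) and Lzts2 (0.84).

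Other genes of the pathway were read from a list of 53, of which 47 passed the filter on low counts. Between old + vehicle-treated and young mice 11 of the 47 were called, 8 higher and 3 lower, where 9.06% of all genes were, with a median log2 fold change of 0.14 against 0.007 over all genes. DESeq2 also called 11, with Tll1 (0.77, adjusted p = 0.0379) in place of Atoh8 (0.43, adjusted p = 0.0299). None was called by edgeR between the old groups, and DESeq2 called 0. Before adjustment 10 of 47 were under 0.05, all lower, against 23.9% of all genes (4614, of which 1805 were lower). Between old + AP-treated and young mice 6 were called (7 by DESeq2), 2 higher and 4 lower, where 8.54% of all genes were, with a median of -0.08 against 0.02. Eng, Smad7 and Tll1 were also called with the osteoblast and osteocyte score as a covariate in old + vehicle-treated mice and Eng, Smad7, Fst and Gdf7 in old + AP-treated mice, all higher, and the calls lost in that fit are named below.

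Among further antagonists, 3 of 13 were called between old + vehicle-treated and young mice. Grem1, which encodes gremlin, a BMP antagonist, had a median of 33.8 CPM in young mice (27.5 to 45.5), 12.0 in old + vehicle-treated (6.41 to 19.8) and 12.0 in old + AP-treated mice (8.23 to 17.7). Every old mouse lay below every young mouse. The log2 fold change was -1.48 ± 0.16 (edgeR adjusted p = 1.96e-08) and -1.57 ± 0.15 (adjusted p = 8.63e-10) relative to young mice, called in every fit without 1 mouse. Chrdl1, a chordin-like antagonist, fell in old + vehicle-treated mice (-0.54 ± 0.15, adjusted p = 0.0115) from a median of 37.6 to 29.6 CPM, a call lost without mouse 23, 38 or 39 and with the osteoblast and osteocyte score (-0.499) or the muscle score (-0.44) as a covariate. In old + AP-treated mice it differed by -0.48 (adjusted p = 0.0186), which was called in 8 of 28 fits without 1 mouse and without mice 16, 18 and 19 (-0.53). Fst, which encodes follistatin, an inhibitor of activins and some BMPs, rose from a median of 10.5 to 17.4 CPM (0.74 ± 0.14, adjusted p = 0.000304) in old + vehicle-treated mice, and in old + AP-treated mice it differed by 0.38 (adjusted p = 0.0457) and was not called, other than with the osteoblast and osteocyte score as a covariate (0.58, adjusted p = 0.00112). In old + AP-treated mice Sostdc1, an antagonist of BMP and Wnt ligands, rose relative to young mice (0.97 ± 0.33, adjusted p = 0.0379) at low levels, from a median of 0.365 to 0.503 CPM, and was called in 16 of 28 fits without 1 mouse and not with the osteoblast and osteocyte score (1.03, adjusted p = 0.0665). The most abundant antagonists not called, Nbl1 and Twsg1, differed from young mice by -0.06 and 0.06 in old + vehicle-treated and by -0.39 and -0.08 in old + AP-treated mice.

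Among the other BMP-class ligands, 3 of 5 tested were called between old + vehicle-treated and young mice, all higher and all at low levels. Bmp8b, the neighbour and near copy of Bmp8a, rose from a median of 0.746 CPM in young mice to 1.36 in old + vehicle-treated mice (0.85 ± 0.25, edgeR adjusted p = 0.0141) and 1.55 in old + AP-treated mice (1.01 ± 0.24, adjusted p = 0.00363), and was called in every fit without 1 mouse. Gdf7 rose from a median of 0.0734 to 0.242 CPM (1.58 ± 0.45, adjusted p = 0.0101). Gdf5, a ligand of joint development, had a log2 fold change of 2.23 ± 0.57 (adjusted p = 0.00486) that rested on mouse 16 at 20.6 CPM, where the next old + vehicle-treated mouse was at 1.32, and without it the value was 0.77 (adjusted p = 0.16). Gdf10 (-0.05, adjusted p = 0.892) and Gdf6 (0.36, adjusted p = 0.529) did not meet the call.

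Of 11 receptors and co-receptors, 3 were called between old + vehicle-treated and young mice, all higher, and all 3 were co-receptors of the repulsive guidance family. Rgma rose by 1.14 ± 0.25 (edgeR adjusted p = 0.00109) from a median of 6.21 to 12.08 CPM, Rgmb by 0.53 ± 0.15 (adjusted p = 0.00977) and Hfe2, the skeletal muscle and liver member that encodes hemojuvelin, by 0.95 ± 0.32 (adjusted p = 0.0323). Of the 8 skeletal muscle markers 1 was called higher in the same comparison, all 8 had positive fold changes, and with the muscle score as a covariate the values were 0.90, 0.40 and 0.53 (adjusted p = 2.19e-05, 0.000342 and 9.53e-06), which put Rgmb under the fold threshold. With the osteoblast and osteocyte score Hfe2 was at 0.89 (adjusted p = 0.0535) and was not called. Rgmb was not called without mouse 16, 20, 33 or 39, and Hfe2 was called in 16 of 25 such fits. The most abundant uncalled genes of the list, the co-receptor Eng (0.48, adjusted p = 0.00254) and the type II receptor Bmpr2 (-0.08, adjusted p = 0.673), missed the call (Eng met it in 5 of 25 fits without 1 mouse), and none of the 11 met it in old + AP-treated against young mice. Eng was called in both comparisons with the osteoblast and osteocyte score (0.57, adjusted p = 1.26e-05, with vehicle and 0.51, adjusted p = 0.000154, with AP). With the muscle score Rgma (0.61, adjusted p = 0.00141) and Hfe2 (0.59, adjusted p = 6e-07) were called in old + AP-treated mice as well.

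Of the 4 Smad transducers, Smad9 was called, lower in old + vehicle-treated mice by -0.56 ± 0.18 (edgeR adjusted p = 0.0255) from a median of 10.8 to 7.55 CPM, with every old + vehicle-treated mouse below the young median. In old + AP-treated mice it differed by -0.499 ± 0.174 (adjusted p = 0.0408). With the osteoblast and osteocyte score as a covariate Smad9 was at -0.36 (adjusted p = 0.000765) and -0.15 (adjusted p = 0.24), and was not called. Smad5 (-0.16, adjusted p = 0.102) and Smad4 (0.01, adjusted p = 0.888) did not meet the call in old + vehicle-treated mice. Among 11 other targets and feedback inhibitors, only Atoh8 was called between old + vehicle-treated and young mice (0.93 ± 0.26, adjusted p = 0.00972), and it rested on mouse 16 at 44.1 CPM, with 0.43 (adjusted p = 0.0511) without that mouse. In old + AP-treated against young mice, Smad6, a feedback inhibitor, and Dlx5, a homeobox gene of osteoblasts, fell by 0.60 each (adjusted p = 0.0446 and 0.0425), and Bmp1, the protease that cleaves chordin and procollagens, fell by 0.64 (adjusted p = 0.0386). Each of these 3 calls was lost without mice 16, 18 and 19 (log2 fold changes -0.49, -0.50 and -0.55, adjusted p 0.0917 to 0.1) and in 14 or 15 of 28 fits without 1 mouse. With the osteoblast and osteocyte score as a covariate they were -0.23, -0.20 and -0.29 (adjusted p 0.248 to 0.43). Id3 (-0.07 and -0.53) and Bambi (-0.14 and -0.15), the most abundant targets not called, had adjusted p from 0.0777 to 0.858 in the 2 comparisons with young mice.

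**Figure D5:**
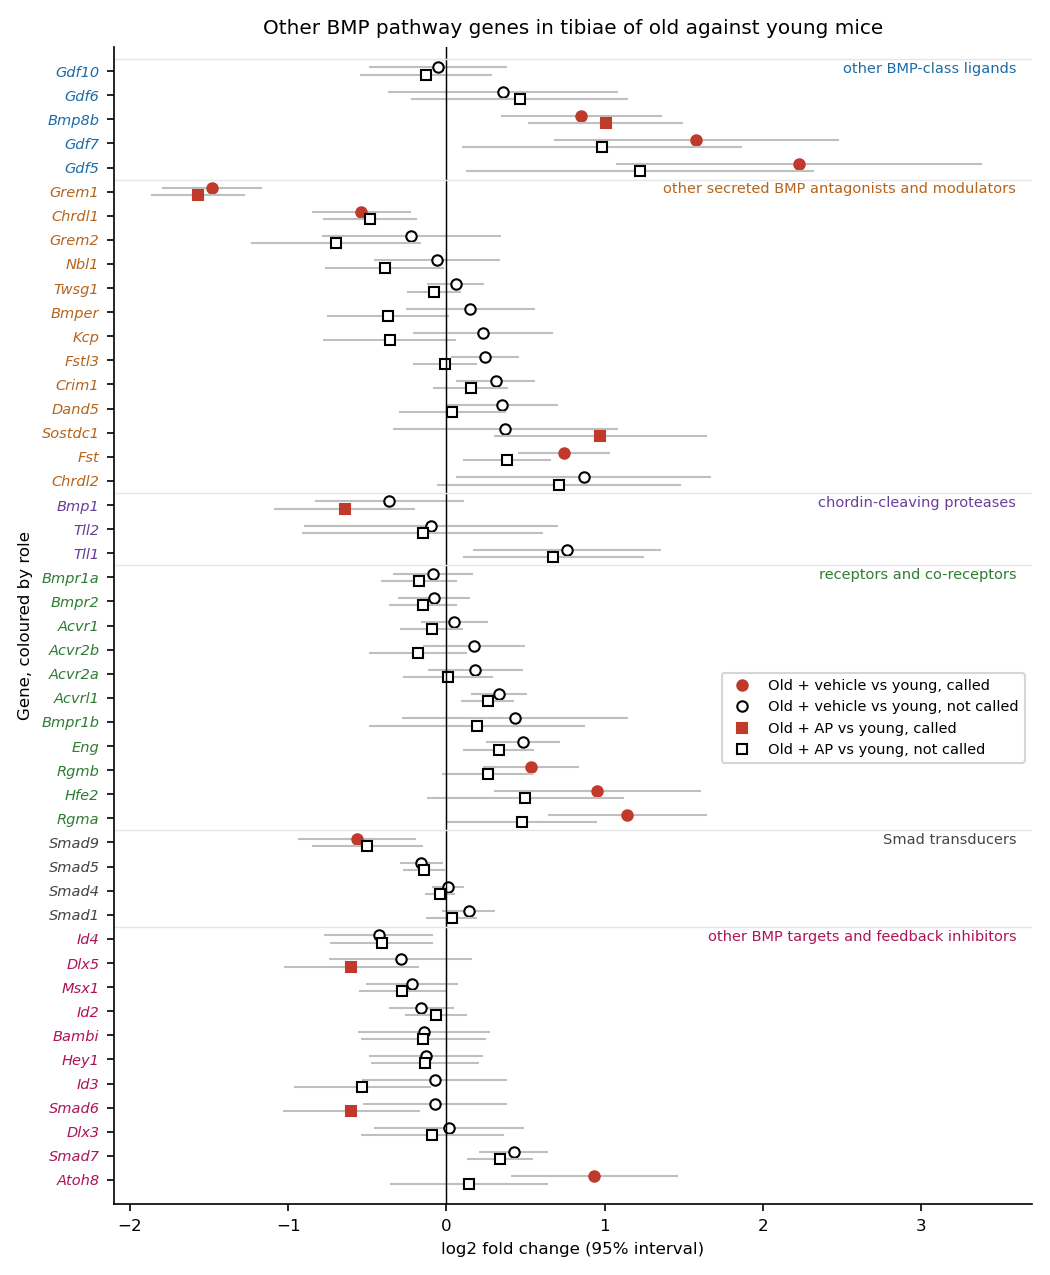
Log2 fold change relative to young mice (horizontal axis, with 95% intervals) of 47 other BMP pathway genes, grouped and coloured by role; circles, old + vehicle-treated; squares, old + AP-treated; red, called. Grem1 lies far below 0 in both (-1.48 and -1.57), and the co-receptors Rgma, Rgmb and Hfe2 are called higher in old + vehicle-treated mice.

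Some of these genes share sequence or position with others, and whether strand was used in counting is not given in the sources used here. In GENCODE M21, 1878 of the 4025 exonic bases of Bmp5 are covered by the antisense gene Gm26903, listed at a median of 0 counts. The exons of Bmp6 and Txndc5, a gene on the opposite strand with a median of 7344 counts against 772 for Bmp6, share 224 bases, and their group-centred r was -0.03. Those of Chrd and Thpo, on opposite strands, share 239 bases (medians of 278 and 205 counts, r = 0.42). The deposited gene lengths of Bmp6 (2410 bases) and Chrd (5838) are shorter than their M21 exons (3900 and 6258 bases). Some shared bases may therefore lie outside what was counted. If strand was not used, reads in shared bases that were counted could not be told apart. Bmp8a and Bmp8b are near-identical, and how reads that match both were counted is not stated.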

How the data were processed

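RNA from 41 tibia diaphyses, centrifuged to remove marrow, was sequenced and 1 table of whole-number counts per gene was deposited. The authors aligned reads with TopHat2 2.0.6 to GRCm38 and counted them with HTSeq (version not given), per the submitters' processing notes. The strand setting is not given in the sources used here. The 10 genes, the pathway and marker lists and the tests were chosen with earlier results of these data known.

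Groups came from the labels. In R 4.3.3, counts were filtered by edgeR 4.0.16 (filterByExpr), TMM-normalized and tested in 1 quasi-likelihood model of the 3 groups. P-values were adjusted by the Benjamini-Hochberg method over 19292 genes, and each sets a difference between groups against the spread between mice. The scripts were tested on simulated data. Correlations used log2 CPM (prior count 2), group means subtracted, with 100000 permutations within groups (numpy 2.4.6). Alternatives were DESeq2 1.42.0, DESeq2 size factors, no filter, models of 2 groups, no fold threshold, marker scores as covariates and each mouse left out. Leaving out mice 16, 18 and 19 together and the marker-score correlations were chosen after seeing the data. All 37 mitochondrial genes were listed at 0 in every mouse. Among pathway genes, those called were named, with up to 2 uncalled genes of highest mean CPM per list. Reads of 2 mice of a group differed by at least 33.13 times the counting variance, and no duplicate was seen within a group. RefSeq promoters came from a GRCm38.p6 table.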

Additional observations from a re-analysis of the deposited data

How the results depend on the processing

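With 1 mouse left out at a time, 791 fold changes of the 10 genes kept their direction and their side of the threshold, 5 gained a call, 5 lost one and 19 changed sign. The sign changes were Chrd between old + vehicle-treated and young mice (-0.224 to 0.017) and Bmp8a between old + AP-treated and young mice (-0.106 to 0.060). Over the same fits the calls among the 10 genes ran from 0 to 1 (old + vehicle-treated against young), 0 to 2 (between the old groups) and 1 to 3 (old + AP-treated against young). Calls among the 47 pathway genes ran from 7 to 12, 0 to 3 and 2 to 9 in that order, and the correlations that passed from 37 to 45.

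Without a fold threshold, 2 and 4 of the 10 genes were called in old + vehicle-treated and old + AP-treated mice against young mice, and 12 pathway genes in the latter. A model of 2 groups called 1 of the 10 genes (Bmp3) in old + vehicle-treated mice. Without a filter 3 pathway genes were called in old + AP-treated against young mice, and with the muscle score as a covariate 10. Leaving out mice 16, 18 and 19, chosen after seeing the data, gave 1 call among the 10 genes in each comparison with young mice, and turned Bmp8a (0.014) and Bmp3 (0.029) between the old groups and Bmp8a (0.119) in old + AP-treated against young mice. DESeq2, as test or as size factors, gave 0.004 for the last of these.

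With the osteoblast and osteocyte score as a covariate 0 of the 10 genes were called in old + AP-treated against young mice, and 12 fold changes changed sign. They were Bmp4 (0.104) and Chrd (0.093) in old + vehicle-treated mice, Bmp2 (0.067), Bmp6 (0.031), Bmp7 (0.072), Bmp8a (0.067) and Bmp3 (0.069) between the old groups, and Bmp2 (0.028), Bmp4 (0.071), Bmp7 (0.064), Bmp8a (0.337) and Id1 (0.055) in old + AP-treated against young mice. The cause of these changes was not tested. No paired analysis was possible because the labels tie no mouse of one group to a mouse of another. Nog had 25 to 358 counts per mouse, so that its lowest values carry the most counting error, and the number of mice limits the width of every interval.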

Other observations

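A few mice held the extremes of several of the 10 genes. Among old + AP-treated mice, mouse 19 was lowest for 7 genes (Bmp4, Bmp5, Bmp7, Bmp8a, Nog, Chrd and Id1) and mouse 12 highest for 5 (Bmp2, Bmp3, Bmp4, Bmp7 and Bmp8a). Among old + vehicle-treated mice, mouse 21 was lowest for 6 (Bmp2, Bmp4, Bmp7, Bmp8a, Nog and Chrd) and mouse 6 highest for 5 (Bmp4, Bmp5, Bmp6, Bmp7 and Id1). Young mouse 39 was lowest for 7 genes of its group, Nog and Chrd included, and highest in it for the antagonists Grem1 (45.5 CPM) and Chrdl1 (53.98 CPM).

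In the pathway lists, Smad7, a feedback inhibitor of TGF-beta and BMP receptors, differed from young mice by a log2 fold change of 0.42 in old + vehicle-treated mice (edgeR adjusted p = 0.00419) and 0.34 in old + AP-treated mice (adjusted p = 0.0183), without the fold needed for a call. Smad7 was called in both with the osteoblast and osteocyte score as a covariate (0.52, adjusted p = 4.09e-07, and 0.54, adjusted p = 4.47e-07). Acvrl1, an endothelial type I receptor, differed by 0.33 (adjusted p = 0.00593) and 0.26 (adjusted p = 0.027). Both were named after their values were seen. Pathway genes that did not pass the filter on low counts were Bmp10 and Gdf2 (0 to 4 counts per mouse), Cer1 (0 to 8), Vwc2 (0 to 14), Vwc2l (0 to 3) and Msx2 (0 to 17).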
